A study of Saccharomyces cerevisiae with 6 samples.

Results

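The 26S proteasome is the protease that degrades ubiquitin-tagged proteins, and its subunits are encoded by genes named PRE, PUP, RPN, RPT and *SCL1* in yeast. Every gene of the count table whose symbol begins with PRE or RPN followed by a number, *PUP1* to *PUP3*, *RPT1* to *RPT6* and *SCL1* were taken, which gave 34 of the 7126 genes listed. Sorted by gene name, 14 encode the core particle and 18 the regulatory particle. The remaining 2 share the name but are not subunits, since *RPN4* encodes a transcription factor and *RPN14* a chaperone of assembly. Transcript levels of these genes were compared between 3 colonies of a strain with *kcs1*-S537A,S646A (below, the mutant) and 3 colonies of a strain with wild-type *KCS1* (below, wild type). Both are diploids of the filamentous Σ1278b background (listed as Siga1278b in the sample labels) with *ura3-52*, *leu2Δ0* and *trp1-1*, and both lack the 2 chromosomal copies of *KCS1*. The allele is carried with its native promoter on a low-copy centromeric plasmid marked with *URA3*, so its dose can differ between cells and colonies. The mutant allele replaces serines 537 and 646 of Kcs1, the kinase that makes inositol pyrophosphates, with alanine. All cultures grew in low-nitrogen medium for 20 h by the labels. Each allele was studied in a single strain, so the allele cannot be told apart from other differences between the strains.

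In the core particle, rings of alpha subunits form the outer gate and rings of beta subunits hold the proteolytic sites inside. The regulatory particle caps the core. Its base contains the Rpt ATPases, which unfold substrates and thread them into the core, and its lid contains the deubiquitinase Rpn11. In yeast, the genes of both particles are activated together by the transcription factor Rpn4, which binds a promoter sequence called the proteasome-associated control element. Rpn4 is itself degraded by the proteasome, which forms a feedback loop.

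Fragments per sample totalled 20529351 to 22701020 in the mutant and 17950923 to 20822332 in wild type. The subunit genes were deeply covered, with at least 1830 counts in each mutant sample and at least 3072 in each wild-type sample. *KCS1* itself had 272, 797 and 347 CPM (counts divided by the library total and multiplied by 1e6, scaled by the TMM factors of edgeR) in mutants 1, 2 and 3, and 367, 309 and 341 CPM in wild types 1, 2 and 3. Mutant 2 thus had the highest *KCS1* level, and the plasmid marker *URA3* was also highest there, at 4741 CPM. The counts per gene do not show the substitutions. As a whole, the 407 genes tested on chromosome XIV were lower in every mutant sample and the 131 on chromosome VI in mutant 1 only, with medians of -0.52, -0.55 and -0.53 for the first and -0.96 for the second (log2 difference from the wild-type mean). No proteasome gene taken here lies on chromosome XIV, and 3 lie on chromosome VI.

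The promoters were searched for the proteasome-associated control element. Since this element is named after proteasome genes, its share among them is not independent of the choice by name. In the window from 250 bases before to 50 bases after the start of each gene, the letters GGTGGCAAA, the core of the proteasome-associated control element, were found on either strand in 27 of the 34 genes (79.4%). Of all 5979 promoters examined, the genes taken here included, 71 (1.19%) held them. The share was 12 of 14 in the core particle and 15 of 18 in the regulatory particle. The match began between 84 and 183 bases before the start, with a median of 120.0, and lay on the strand of the gene in 19 genes and on the other strand in 8. The shorter form TGGCAAA, which lies within the longer one, was found in 30 of the 34 promoters and in 7.28% of all promoters. It was present in *PRE5*, *PUP1* and *RPN8*, which lack the longer form, and neither form was found in the windows of *RPN10*, *RPN13*, *RPN14* and *RPN4*. A match describes the letters only and does not show binding. The promoters of 5 genes are given from the R64 reference genome in RefSeq, 5′ to 3′ on the strand of the gene, with the longer form or its reverse complement in capitals. *PRE4* (chrVI:249817-250116, minus strand), *RPN11* (chrVI:153143-153442, plus strand) and *RPN12* (chrVI:252255-252554, plus strand) are shown because their transcript levels differed most in a single sample. *PUP1* (chrXV:631702-632001, minus strand) is the catalytic subunit gene with the short form alone, in capitals, and *RPN4* (chrIV:416659-416958, minus strand) encodes the factor itself and has no match.
PRE4: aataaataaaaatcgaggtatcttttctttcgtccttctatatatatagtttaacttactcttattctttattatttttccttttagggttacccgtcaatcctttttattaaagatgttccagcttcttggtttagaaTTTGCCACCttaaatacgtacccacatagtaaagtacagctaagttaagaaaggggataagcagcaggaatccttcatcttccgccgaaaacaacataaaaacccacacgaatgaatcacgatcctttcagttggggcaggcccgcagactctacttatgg
RPN11: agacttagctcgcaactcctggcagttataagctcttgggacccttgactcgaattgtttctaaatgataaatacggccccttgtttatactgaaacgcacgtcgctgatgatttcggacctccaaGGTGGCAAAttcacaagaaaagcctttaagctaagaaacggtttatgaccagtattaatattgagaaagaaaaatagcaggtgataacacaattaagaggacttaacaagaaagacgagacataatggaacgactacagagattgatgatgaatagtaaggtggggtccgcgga
RPN12: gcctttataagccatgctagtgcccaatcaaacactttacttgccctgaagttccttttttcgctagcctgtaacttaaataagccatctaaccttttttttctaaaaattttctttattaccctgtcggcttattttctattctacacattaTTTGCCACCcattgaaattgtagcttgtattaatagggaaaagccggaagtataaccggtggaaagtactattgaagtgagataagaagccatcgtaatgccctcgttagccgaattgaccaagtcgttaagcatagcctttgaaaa
PUP1: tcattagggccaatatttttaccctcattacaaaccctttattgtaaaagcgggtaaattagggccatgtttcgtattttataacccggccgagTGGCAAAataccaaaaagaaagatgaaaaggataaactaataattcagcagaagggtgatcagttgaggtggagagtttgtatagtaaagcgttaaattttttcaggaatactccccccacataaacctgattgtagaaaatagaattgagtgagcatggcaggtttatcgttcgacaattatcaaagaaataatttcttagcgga
RPN4: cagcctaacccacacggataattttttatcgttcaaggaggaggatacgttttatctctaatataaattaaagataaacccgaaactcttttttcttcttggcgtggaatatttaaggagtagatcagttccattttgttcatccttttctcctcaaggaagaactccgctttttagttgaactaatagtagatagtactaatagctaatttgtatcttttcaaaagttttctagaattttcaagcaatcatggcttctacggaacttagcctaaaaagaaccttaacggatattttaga

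The subunit genes were expressed at high levels. On the FPKM scale, which divides counts by gene length, mean levels of the 32 subunit genes ranged from 144 to 599.9 in the mutant and from 154 to 608 in wild type, a 4.16-fold and a 3.94-fold range. Even the lowest, *RPN1*, the largest scaffold subunit of the base, was above 81.1% of the genes tested in wild type. By median, the core subunits had higher levels per length than the regulatory subunits in every sample, though the ranges of single genes overlapped. The core medians were 410.2, 455 and 452 FPKM in mutants 1, 2 and 3 and 446, 445 and 446 FPKM in wild types 1, 2 and 3. Those of the regulatory particle were 269.9, 259 and 318 in the mutant samples and 289, 292 and 300.3 in the wild-type samples. The highest level was that of *PRE3*, the beta 1 subunit with a catalytic threonine, at 599.9 ± 44.0 FPKM in the mutant and 608 ± 11.1 FPKM in wild type (SD, n = 3 each). Its closest neighbour, the beta 6 gene *PRE7*, had 564 ± 35.0 and 604 ± 13.4 FPKM in the mutant and in wild type, so the order of these 2 genes lies within the spread between colonies. In the base, the ATPase gene *RPT2* was highest, with 445 ± 47.1 FPKM in the mutant and 471 ± 19.1 FPKM in wild type, and *RPN1* lowest, with 144 ± 22.8 and 154 ± 19.0 FPKM. Within the lid, levels ran in the mutant from 174 ± 8.06 FPKM for *RPN6* to 321 ± 21.4 FPKM for *RPN5*, both scaffold subunits. *RPN14* stood far below the subunits, at 18.5 ± 0.527 FPKM in the mutant and 18.0 ± 1.68 FPKM in wild type, and *RPN4* had 130.0 ± 14.9 and 109.5 ± 5.19 FPKM.

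**Figure D1:**
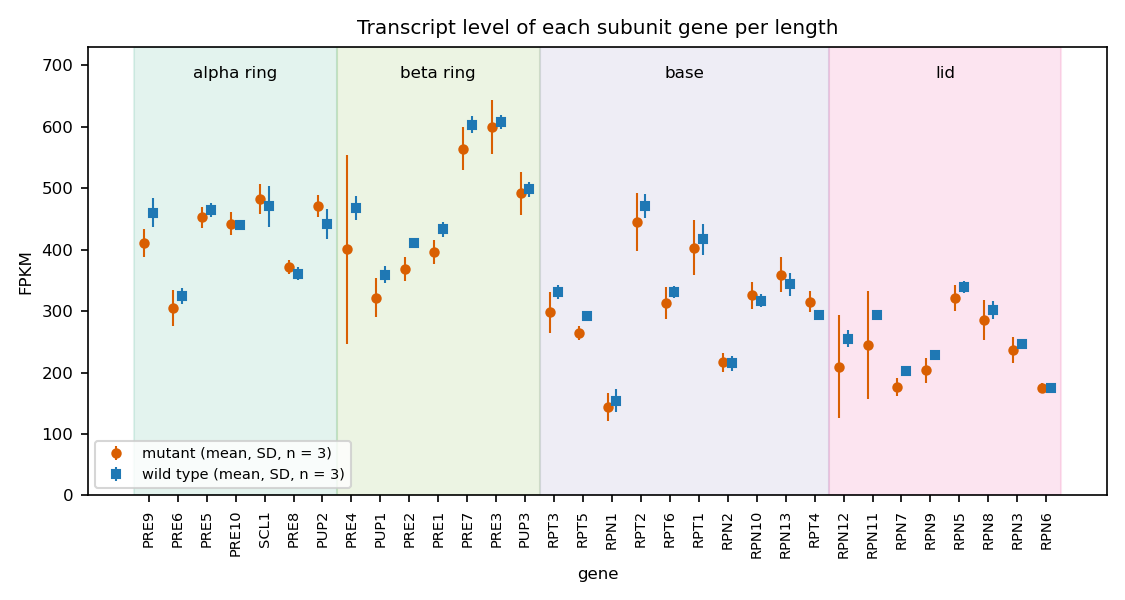
Transcript level of each of the 32 subunit genes in FPKM (y axis) by gene (x axis), grouped by ring and subcomplex, with the mean and SD of 3 mutant samples (circles) and of 3 wild-type samples (squares). Levels ran from 144 to 599.9 FPKM in the mutant, and the wide bars of *PRE4*, *RPN11* and *RPN12* come from mutant 1.

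None of the 34 genes was called between the strains, where a call is an adjusted p-value under 0.05 in the quasi-likelihood test of edgeR. The same test called 5.66% of the 6083 genes tested, with 0.986% higher and 4.67% lower in the mutant. Outside chromosomes XIV and VI, 110 of 5545 genes were called in this fit. All 34 genes passed the filter on low counts. The smallest adjusted p-value from edgeR was 0.24, for *RPN4*, which was also the sole gene of the 34 with an unadjusted p-value under 0.05, against 20.1% of all genes tested (8.24% higher and 11.9% lower in the mutant). DESeq2 and limma-voom called 0 of the 34 as well, where they called 8.62% and 5.56% of all genes they fitted. The log2 fold changes of the 32 subunit genes lay between -0.28 and 0.10 and had a median of -0.08, against 0.01 over all genes tested. Of these 32, 23 were below 0 (71.9%), against 46.8% of all genes tested. Of the 29 outside chromosome VI, 20 were below 0, against 42.45% of the genes tested outside chromosomes XIV and VI. Leaving out mutants 1, 2 and 3 gave medians of -0.02, -0.05 and -0.14, with 20, 25 and 27 of the 32 below 0. Leaving out wild types 1, 2 and 3 gave -0.09, -0.08 and -0.05, with 26, 23 and 22 below 0. In these fits, between 46.9% and 49.5% of all genes tested were below 0. With library totals in place of the TMM factors, the median was -0.15 and 29 of the 32 were below 0, as were 60.6% of all genes tested. For the 29 subunit genes outside chromosome VI, the standard errors were 0.08 to 0.14, and no 95% interval reached below -0.42 or above 0.30 on the log2 scale. In 7 genes all 3 mutant values lay below all 3 wild-type values, and in 1 gene above, where 14.8% and 11.8% of all genes tested were separated in these directions.

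**Figure D2:**
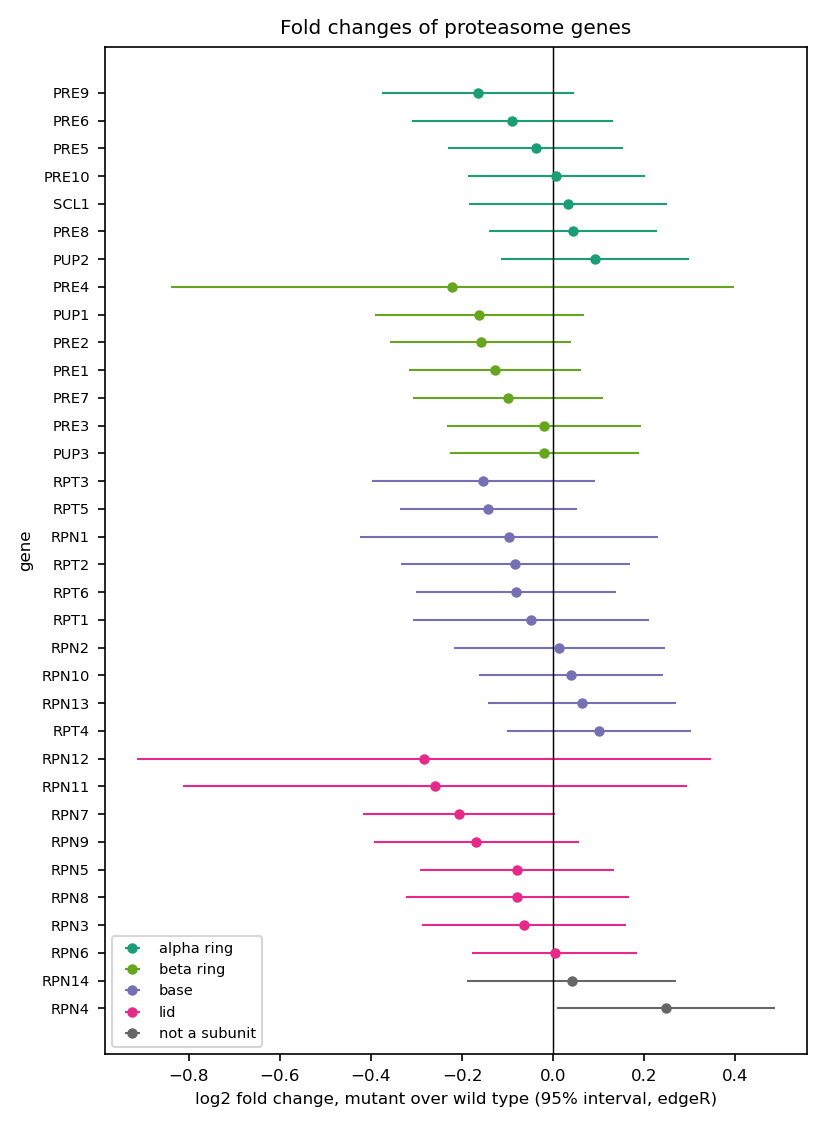
Log2 fold change, mutant over wild type, of each of the 34 genes (x axis; points) with its 95% interval from edgeR (bars), by gene (y axis) and coloured by ring or subcomplex. All subunit genes lie between -0.28 and 0.10, and the interval of *RPN4* alone excludes 0.

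The alpha ring genes were spread around no difference. Of the 7, 3 were below 0 and 4 above, with a median log2 fold change of 0.01, although 6 were below 0 and the median was -0.05 when library totals replaced the TMM factors. The median also turned to -0.01 without mutant 2, mutant 3 or wild type 1. *PRE9*, the one alpha subunit gene that yeast can live without, was lowest, with 305, 339 and 314 CPM in mutants 1, 2 and 3 and 379.9, 350.1 and 344 CPM in wild types 1, 2 and 3. Its groups did not overlap, yet the log2 fold change of -0.17 (standard error 0.09) had an adjusted p of 0.36 from edgeR. *PRE6*, the alpha 4 subunit gene, was next, with 209, 252 and 239.8 CPM in the mutant samples and 238, 252 and 255 CPM in the wild-type samples. Mutant 1 was well below the wild-type range of *PRE6*, and mutants 2 and 3 were in it. At the upper end, *PUP2* (alpha 5) had 354, 382 and 371 CPM in the mutant samples, against 369.6, 338 and 332 CPM in the wild-type samples. *PRE8* (alpha 2) had 277, 273 and 290.5 CPM in the mutant samples, and 268, 268 and 281 CPM in the wild-type samples. Both groups overlapped in *PUP2* and in *PRE8*, with log2 fold changes of 0.09 and 0.04. The other 3 genes, *SCL1* (alpha 1), *PRE5* (alpha 6) and *PRE10* (alpha 7), had log2 fold changes between -0.04 and 0.03.

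All 7 beta ring genes had log2 fold changes below 0, with a median of -0.13, and in 4 of them the groups did not overlap. Without mutant 1, 4 of the 7 were below 0 and the median was -0.05. Over all genes tested, in all samples, 46.8% were below 0 (46.9% without mutant 1) and 14.8% were separated as lower in the mutant. The proteolytic sites lie in the products of *PRE3* (beta 1, caspase-like), *PUP1* (beta 2, trypsin-like) and *PRE2* (beta 5, chymotrypsin-like). *PUP1* had 225, 275 and 258 CPM in the mutant samples and 296, 277 and 275 CPM in the wild-type samples, which gave -0.16 ± 0.10 on the log2 scale (fold change ± standard error) and an adjusted p of 0.41 in edgeR. *PRE2* had 304, 313 and 338 CPM in the mutant samples and 357, 348 and 361 CPM in the wild-type samples, which gave -0.16 ± 0.09 and an adjusted p of 0.35 in edgeR. Every mutant value of these 2 genes was below every wild-type value. *PRE3* had 356, 402 and 409 CPM in the mutant samples and 396, 387 and 400.5 CPM in the wild-type samples, so that mutants 2 and 3 were above all wild-type samples and mutant 1 below them. *PUP3* (beta 3) had 281, 323 and 309 CPM in the mutant samples and 317, 306 and 301 CPM in the wild-type samples, with mutant 1 the lowest and mutant 2 the highest of all. *PRE1* (beta 4) and *PRE7* (beta 6) were the other 2 genes without overlap, at log2 fold changes of -0.13 and -0.10 and adjusted p-values of 0.43 and 0.59 from edgeR. Although all 7 alpha and all 7 beta subunits are built into the same particle, the medians of the rings were 0.01 and -0.13, and whether this differs beyond the spread between samples was not tested.

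In the base, 6 of the 10 genes were below 0, with a median log2 fold change of -0.07. The median was 0.0025 without wild type 3, -0.04, -0.01 and -0.15 without mutants 1, 2 and 3, and -0.13 with library totals. *RPT3* was lowest, with 384, 339.9 and 426 CPM in the mutant samples and 416, 422 and 441 CPM in the wild-type samples. *RPT5* had 337, 336 and 362 CPM in the mutant samples and 386, 372 and 385 CPM in the wild-type samples, with no overlap. Both encode ATPases of the ring that unfolds substrates, and their log2 fold changes of -0.15 and -0.14 had adjusted p-values of 0.47 and 0.40 from edgeR. *RPT4*, another ATPase of this ring, was the single subunit gene whose mutant values all lay above the wild-type values, with 412, 393 and 439 CPM in the mutant samples and 378, 391 and 392 CPM in the wild-type samples. On the log2 scale it was higher by 0.10 ± 0.09 (standard error), which did not pass the test (adjusted p = 0.57 from edgeR). The genes of the ubiquitin receptors Rpn10 and Rpn13 had log2 fold changes of 0.04 and 0.06. *RPN13* had 166, 184 and 158 CPM in the mutant samples and 170.5, 163 and 152 CPM in the wild-type samples.

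Of the 8 lid genes, 7 were below 0, with a median log2 fold change of -0.12, or -0.08 without the 2 on chromosome VI. The median of all 8 was -0.06, -0.07 and -0.21 without mutants 1, 2 and 3, and -0.19 with library totals. *RPN7* had 227, 208 and 246 CPM in the mutant samples and 271, 252 and 264 CPM in the wild-type samples, with no overlap. At -0.21 ± 0.09 on the log2 scale (standard error), with an adjusted p of 0.26 in edgeR, it was the lowest of all subunit genes outside chromosome VI. *RPN9* followed at -0.17, with an adjusted p of 0.39 from edgeR. The scaffold genes *RPN3* and *RPN6* were highest. *RPN3* had 364, 342 and 409 CPM in the mutant samples and 388, 382 and 395 CPM in the wild-type samples, and *RPN6* had 229, 216 and 237 CPM in the mutant samples and 224, 229 and 229 CPM in the wild-type samples. The lid genes thus sat lowest in mutant 2 apart from *RPN11* and *RPN12*, which sat lowest in mutant 1.

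**Figure D3:**
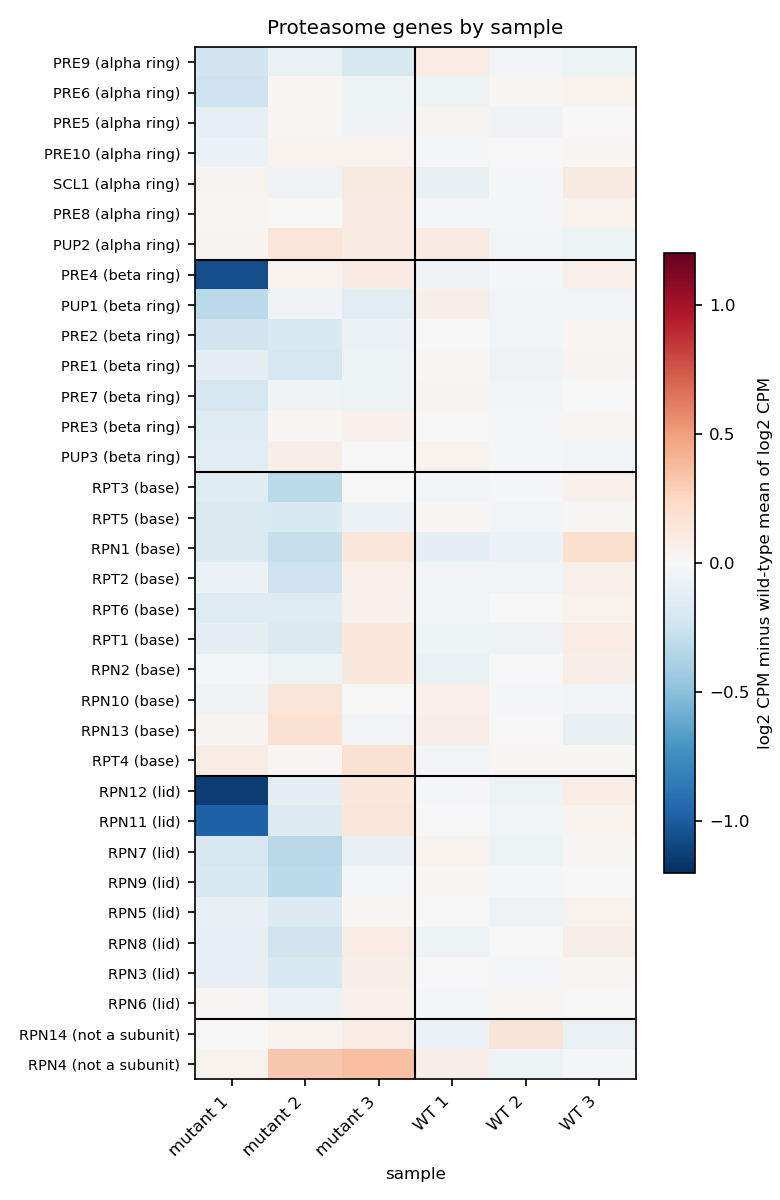
Log2 CPM of each of the 34 genes (rows) in each of the 6 samples (columns), as the difference from the wild-type mean, with blue for lower and red for higher. *PRE4*, *RPN11* and *RPN12* are near -1 in mutant 1, *RPN4* is 0.32 and 0.36 in mutants 2 and 3, and most regulatory particle genes are pale blue in mutant 2.

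The medians of the regulatory and core particle lay close together over all samples and parted within single mutant samples. The median log2 fold change was -0.08 for the regulatory particle and -0.06 for the core, each with 0 genes called. Without the chromosome VI genes these medians were -0.08 and -0.04, and the regulatory minus core difference was -0.04, against -0.02 with them. With a sample left out and all subunit genes kept, the regulatory and core medians ran from -0.16 to -0.02 and from -0.08 to 0.01. The sign of the difference turned with the sample left out (-0.07 to 0.06). By sample, the regulatory genes had medians of -0.11, -0.17 and 0.06 in mutants 1, 2 and 3 and of -0.03, -0.03 and 0.04 in wild types 1, 2 and 3 (log2 difference from the wild-type mean). The core genes had medians of -0.14, 0.01 and -0.02 in the mutant samples and of 0.01, -0.03 and 0.02 in the wild-type samples. The regulatory particle was thus 0.19 below the core in mutant 2, whereas it was 0.03 and 0.08 above the core in mutants 1 and 3. Between the wild-type samples this difference ran from -0.04 to 0.02. Of the 18 regulatory genes, 15, 15 and 5 were below the wild-type mean in mutants 1, 2 and 3, and 12, 14 and 3 in wild types 1, 2 and 3. Of the 14 core genes, 11, 6 and 7 were below it in the mutant samples and 5, 13 and 4 in the wild-type samples. Among all genes tested the share below was between 47.7% and 51.8% in each of the 6 samples. In mutant 2, *RPN10* and *RPN13* stood apart from the rest of the regulatory particle at 0.15 and 0.18. Neither form of the promoter letters above was found for these 2, and *RPN13* is the shortest subunit gene, at 471 bases. *RPN8*, which lacks the longer form as well, was at -0.24 in mutant 2, and the core gene *PUP2*, which holds it, was at 0.14. Whether the letters bear on these levels was not tested. Gene length moved with the samples too. Over the nuclear genes tested outside chromosomes VI and XIV, the median log2 difference in mutant 2 was 0.17 for genes of up to 500 bases, 0.03 for those above 500 and up to 1000, -0.02 up to 1500, -0.04 up to 2000 and -0.01 above that, and the median length was 1297.5 bases in the regulatory particle and 762 bases in the core. With each sample's trend with length taken off, a step added after seeing the data, the regulatory particle was still 0.13 below the core in mutant 2, and 0.07 and 0.04 above it in mutants 1 and 3. Mutant 2 is also the sample with the highest *KCS1* and *URA3* levels, and the part of the plasmid level in this pattern was not tested.

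**Figure D4:**
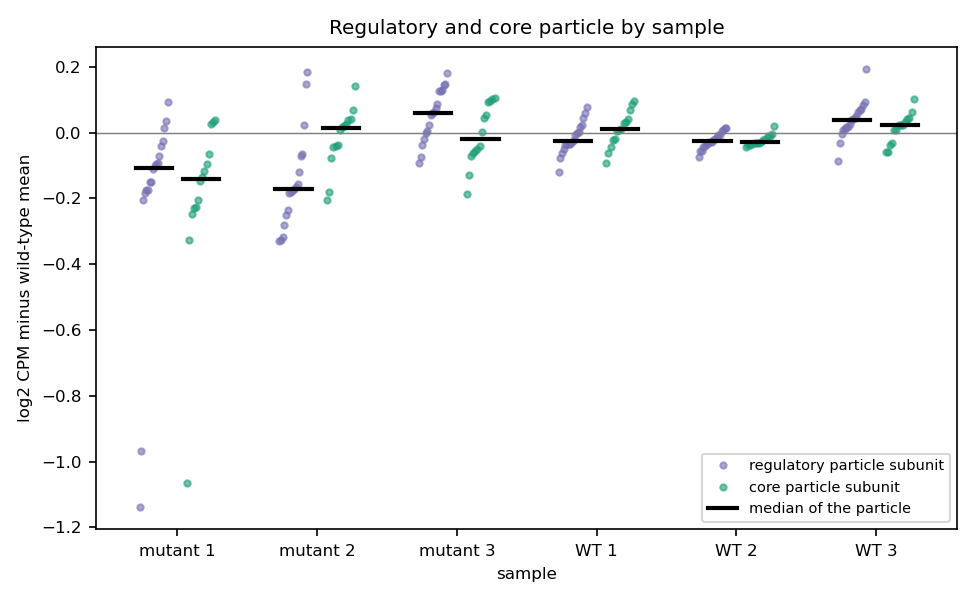
Log2 CPM of each subunit gene as the difference from the wild-type mean (y axis) in each sample (x axis), for the 18 regulatory genes (left points) and the 14 core genes (right points), with the median of each particle as a black line. The regulatory median is -0.17 in mutant 2 against 0.01 for the core, and the 3 points near -1 in mutant 1 are the chromosome VI genes.

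The largest differences in any sample were those of the 3 subunit genes on chromosome VI, and they were found in mutant 1 only. *PRE4*, the beta 7 subunit gene (chrVI:249066-249866, minus strand), had 179, 385 and 399.5 CPM in mutants 1, 2 and 3 and 363, 369 and 391 CPM in wild types 1, 2 and 3. *RPN12*, a lid subunit gene on the same chromosome (chrVI:252505-253329, plus strand), had 95.6, 194 and 229.8 CPM in the mutant samples and 206, 202 and 223 CPM in the wild-type samples. *RPN11*, which encodes the deubiquitinase of the lid (chrVI:153393-154313, plus strand), had 138, 240.4 and 298 CPM in the mutant samples and 268, 264 and 278 CPM in the wild-type samples. Mutant 1 was therefore at 47.7%, 45.4% and 51.1% of the wild-type mean for *PRE4*, *RPN12* and *RPN11*, while mutants 2 and 3 were between 89.1% and 110.4%. The genes of chromosome VI had a median of 51.3% in the same sample, and 125 of the 131 tested were below the wild-type mean, with quartiles of -1.14 and -0.68 on the log2 scale. On that scale *PRE4*, *RPN12* and *RPN11* were at -1.07, -1.14 and -0.97, all below the chromosome's median of -0.96, with *RPN12* at its lower quartile. None of the other 29 subunit genes was below -0.33 in mutant 1, and their lowest was *PUP1*. The fold changes of *PRE4*, *RPN11* and *RPN12* over all samples were -0.22, -0.26 and -0.28, with standard errors of 0.27, 0.24 and 0.27 and adjusted p-values of 0.70, 0.60 and 0.61 from edgeR. Without mutant 1 they were 0.06, -0.01 and 0.00. In mutant 1 the transcripts of these 3 subunits were thus low beside those of the subunits they assemble with, in the core as well as in the lid. Whether this changed the amount of any particle was not measured.

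**Figure D5:**
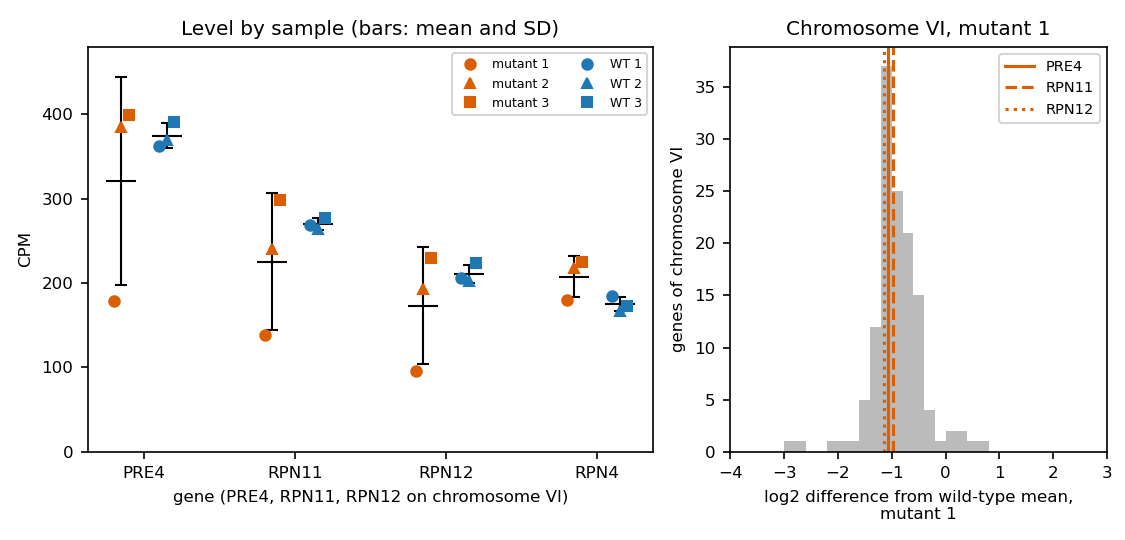
Left, CPM (y axis) of *PRE4*, *RPN11*, *RPN12* and *RPN4* (x axis) in each mutant sample (left symbols) and wild-type sample (right symbols), with the mean and SD as bars. Right, number of chromosome VI genes (y axis) by their log2 difference from the wild-type mean in mutant 1 (x axis), with lines at *PRE4*, *RPN11* and *RPN12*, which lie near the chromosome's median of -0.96.

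*RPN4*, the activator of the proteasome genes, had the highest log2 fold change of the 34. Its level was 180.1, 218 and 225 CPM in mutants 1, 2 and 3 and 184, 167 and 173 CPM in wild types 1, 2 and 3. Mutants 2 and 3 were above every wild-type sample, and mutant 1 lay within the wild-type range. On the log2 scale the difference was 0.25 ± 0.10 (standard error), and with an adjusted p of 0.24 in edgeR the gene was not called. Without mutant 1 it was 0.34 with an adjusted p of 0.044 from edgeR, and 1 of the 34 genes was then called, where 6.92% of all genes tested were called in the same samples. In mutants 2 and 3, where *RPN4* was highest, the subunit genes had medians of -0.07 and 0.05 from the wild-type mean, and in mutant 1, where *RPN4* lay within the wild-type range, -0.13. Without the subunit genes on chromosome VI these medians were -0.07 and 0.02 in mutants 2 and 3, and -0.11 in mutant 1. Whether the subunit levels follow that of *RPN4* was not tested. *RPN14* had 22.6, 23.2 and 24.0 CPM in the mutant samples and 21.5, 25.0 and 21.4 CPM in the wild-type samples, with an overlap of the groups.

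Of 34 further genes around the proteasome, 0 were called in edgeR in either direction, 3 were higher and 3 lower at an unadjusted p-value under 0.05 (against 8.24% and 11.9% of all genes tested), and their median log2 fold change was -0.08. DESeq2 called 1 of them, *DDI1*, as lower, where it called 8.62% of all genes it fitted, in either direction. Among the 9 assembly chaperone genes, the highest was *POC4*, which encodes part of a chaperone pair for the alpha ring, with 25.5, 26.0 and 20.3 CPM in the mutant samples and 19.4, 19.9 and 17.1 CPM in the wild-type samples. On the log2 scale it was higher by 0.35 ± 0.13 (standard error), with an adjusted p of 0.18 in edgeR. With each sample's trend with gene length taken off, *POC4* was higher by 0.28. *IRC25*, which encodes the partner of Poc4, had 0.24 (adjusted p = 0.16 from edgeR). Neither gene overlapped between the strains, where 11.8% of all genes tested were separated as higher in the mutant. *ADD66*, also on this list, was separated as lower at -0.18 (adjusted p = 0.25 from edgeR), as were 14.8% of all genes tested. *NAS6*, a chaperone of the base, was lowest at -0.25, and *UMP1*, which guides maturation of the beta subunits, was at 0.00, with 287, 325 and 289 CPM in the mutant samples and 322, 290.0 and 291 CPM in the wild-type samples.

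Among the 9 associated proteins and activators, *UBP6* and *BLM10* also lie on chromosome VI. *UBP6*, a deubiquitinase of the base, had 82.9, 195 and 220.5 CPM in the mutant samples and 216, 227 and 247 CPM in the wild-type samples. *BLM10*, an alternative cap of the core, had 145, 292 and 339.9 CPM in the mutant samples and 315, 319.7 and 352 CPM in the wild-type samples. Both were lowest in mutant 1, as were the subunit genes of this chromosome, and neither was called (adjusted p = 0.44 and 0.52 from edgeR). In mutant 1 *UBP6* and *BLM10* were at -1.47 and -1.18 on the log2 scale, where the lower quartile of chromosome VI was -1.14. Their log2 fold changes were -0.47 and -0.34 over all samples, and -0.15 and -0.06 without mutant 1. *SEM1*, a small lid subunit outside the naming scheme, was highest of this list at 0.14, with 158, 174 and 146 CPM in the mutant samples and 156, 138 and 140.2 CPM in the wild-type samples. *SEM1* is a short gene, of 270 bases, and with each sample's trend with gene length taken off it was at 0.03. Among the 6 regulators, *UBR2*, whose product is a ubiquitin ligase for Rpn4, was highest, with 91.2, 89.7 and 102 CPM in the mutant samples and 79.9, 75.9 and 83.0 CPM in the wild-type samples, or 0.25 ± 0.08 higher on the log2 scale (standard error), with an adjusted p of 0.14 in edgeR. *YAP1*, a transcription factor of the oxidative stress response, was lowest at -0.06. Among the 10 genes of ubiquitin and its delivery, *DDI1*, a shuttle protein, had 134, 134 and 163 CPM in the mutant samples and 181, 176 and 184 CPM in the wild-type samples. Its groups did not overlap, and its log2 fold change of -0.33 (standard error 0.10) had an adjusted p of 0.10 from edgeR. The polyubiquitin gene *UBI4* was highest of this list at 0.08, with 1533, 1275 and 1649 CPM in the mutant samples and 1414, 1376 and 1434 CPM in the wild-type samples.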

How the data were processed

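RNA from 3 colonies of each strain was sequenced as paired-end poly(A) libraries. The authors' sequencing provider mapped reads with HISAT2 2.0.5 and counted fragments per gene with featureCounts 1.5.0-p3, and the deposited count table holds these counts without normalization. The deposited FPKM values divide each count by gene length and by a depth proportional to the DESeq2 size factor, as checked on the values. The authors' table of mean FPKM was not used. The genome build and strand setting are not given in the sources used here. All 34 genes have the coordinates of R64, and *FUB1* was named through the RefSeq table. A single gene, *RPT1*, overlaps another listed feature, which had 0 counts.

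The test used edgeR 4.0.16 (R 4.3.3) in place of the authors' DESeq2 1.20.0. Of 7126 genes, filterByExpr with a minimum count of 10 kept 6083. TMM normalization, glmQLFit and glmQLFTest (2-sided, Benjamini-Hochberg adjustment over all genes tested, threshold 0.05) followed. Standard errors are the log2 fold change over the square root of the F statistic. CPM are scaled by TMM factors, and log2 CPM use a prior count of 2. The 3 samples of a group are separate colonies of 1 strain, so p-values judge the difference between these 2 strains against the spread between colonies. The procedure was tested on simulated data. Values per sample are given for genes on chromosomes VI or XIV, catalytic subunits, *RPN4* and *RPN14*, and the 2 highest and 2 lowest fold changes of each ring or subcomplex, and *RPN7* was added after its values were seen. From the lists of pathway genes, *UMP1*, *UBI4*, *BLM10*, *SEM1* and the highest and lowest of each list were named. *IRC25* and *ADD66* were added after their values were seen. The members and lists were chosen with earlier results of these data known. Promoters were searched for exact letters on both strands. Alternatives were DESeq2 1.42.0 or limma-voom (limma 3.58.1), limma-trend on log2(FPKM + 1), other size factors and filters, a replicate block, each sample left out, chromosomes XIV and VI left out or offset, and, added after seeing the data, an offset for gene length and medians without the chromosome VI genes.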

Additional observations from a re-analysis of the deposited data

How the results depend on the processing

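Of the 34 proteasome genes, 0 were called under DESeq2 size factors, library totals, either filter, DESeq2, limma-voom, limma-trend on log2(FPKM + 1), the chromosome and length settings and the replicate block, and between 0 and 1 with a sample left out, the 1 being *RPN4* without mutant 1 (0.34, adjusted p = 0.044 from edgeR). Over these alternatives the adjusted p of *RPN4* ran from 0.044 to 0.58. With library totals, which moved the median of all genes to -0.05 (0.01 in edgeR with TMM), 6 of the 34 were lower and 0 higher at an unadjusted p-value under 0.05. In that setting, 1123 of the 6083 genes tested were under this p-value in edgeR, in either direction. For the pathway genes, DESeq2 called 1, where it called 8.62% of all genes it fitted. Leaving out samples gave 0 to 1, the 1 being *DDI1* without mutant 3 (adjusted p = 0.031 from edgeR). Without mutant 3, 4.37% of all genes tested were called. The core median ran from -0.08 to 0.01 with a sample left out and from -0.12 to -0.03 otherwise, the regulatory median from -0.16 to -0.02 and from -0.15 to -0.08, and the regulatory minus core difference from -0.07 to 0.06 and from -0.05 to -0.0019. The sign of this difference turned with the sample left out. Over all genes, 344 were called, against 579 with DESeq2, 96, 84 and 122 without wild types 1, 2 and 3, 423, 481 and 267 without mutants 1, 2 and 3, and 16 and 19 with chromosomes XIV and VI left out or offset. With the replicate block, 282 were called. Same-numbered samples had correlations of deviations of -0.13, 0.02 and 0.34, and samples of unlike number had values from -0.26 to 0.26. These values do not settle whether the numbers pair the samples, and the main fit used no pairing. Each subunit gene had at least 1830 counts in every sample, and the share of counting error in the spread between colonies was not tested.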

Other observations

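Outside the 34 genes, 44 promoters held the letters GGTGGCAAA, and in 7 of these the match is the very one found for a proteasome gene, since the promoters overlap. Of the 43 that were tested, edgeR called 0 higher and 3 lower in the mutant, where it called 0.986% and 4.67% of all genes tested. Their median log2 fold change was -0.01, against -0.08 for the 27 proteasome genes with the letters, of which 0 were called. The 3 are *ABZ1* (-0.90), which encodes an enzyme of folate synthesis, YNL155W (-0.56) and YBR284W (-0.55). *ABZ1* and YNL155W lie on chromosome XIV, whose median was below the wild-type mean in each mutant sample, and YBR284W lies on chromosome II. Among the others with the letters are the genes of the ubiquitin pathway *CDC48*, *UBA1* and *UBI4*, the proteasome-associated *ECM29* and the regulator *YAP1*, with log2 fold changes of -0.08, -0.13, 0.08, -0.16 and -0.06 and none called.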
